A study of Homo sapiens with 5 samples.

Results

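The 28 genes described here make cholesterol or control how much of it a cell makes, moves, stores and exports. They were taken by symbol from a fixed list, matched to Ensembl IDs through GENCODE v29, and all 28 were found among the 58812 gene IDs of the count table. RNA sequencing libraries came from C4-2B, a human castration-resistant prostate cancer line, and from C4-2B cells carrying the HOXB13 K13A mutation. K13A puts alanine in place of lysine 13 in HOXB13, a homeobox transcription factor of the prostate, and the series asks which transcripts depend on acetylation of that lysine. There were 2 libraries of the parental line, 2 of the mutant clone C4K13A and 1 of the mutant clone C5K13A, all grown in the same C4-2B medium. No sample carried a further treatment in its labels. Each line of mutant cells is 1 clone, so an effect of the mutation cannot be told apart from differences between clones. The labels do not tell whether the libraries of a group are separate cultures, and p-values may therefore reflect technical spread alone. How the mutation was introduced is not given in the sources used here.

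Library totals ran from 43190276 to 57282373 counts. HOXB13 lay between 338 and 448 CPM (counts scaled to a common library size with normalization factors) in all 5 libraries, and gene counts cannot show the substitution itself. The 9 luminal prostate markers, KLK3 among them, summed to 5162 to 7249 CPM in the parental line and 5355 to 6195 CPM in the clones. KLK3 was the largest part of these sums, and single markers differed in both directions. TMPRSS2 had 713 and 319 CPM in parental cells, against 358 and 139 for C4K13A and 106.5 for C5K13A. For KLK2 the values were 511 and 298, against 438 and 310 for C4K13A and 115 for C5K13A. For KRT8 they were 305 and 316, against 462 and 572 for C4K13A and 367 for C5K13A. Summed markers of endothelium were 5.61 to 5.73 CPM in parental libraries and 2.66 to 4.34 CPM in the clones, with 4 of 5 under 1 CPM everywhere. Those of fibroblasts were 8.71 to 9.54 CPM and 5.42 to 8.34 CPM, and those of leukocytes 0.169 to 0.216 CPM and 0.279 to 0.304 CPM. Their part in the results was not tested. Liver and adrenal markers reached 2.21 CPM. In such bulk RNA, fewer cells of a type and less RNA per cell cannot be told apart. Mitochondrial ribosomal RNA, a trace of how completely ribosomal RNA was removed, was 28.03 CPM in parental library 1 and 63.2 CPM in C4K13A library 1. It was 365 CPM in C4K13A library 2, 669 CPM in C5K13A and 1761 CPM in parental library 2.

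Cholesterol is built from acetyl-CoA through mevalonate, isoprenoid units, squalene and lanosterol, and a chain of endoplasmic reticulum enzymes trims lanosterol to the final sterol. The transcription factor SREBP2, the product of SREBF2, drives most of these enzyme genes. Its escort protein SCAP carries it to the Golgi for cleavage when sterol is low, and INSIG1 and INSIG2 hold it back when sterol is plentiful. Surplus cholesterol is esterified for storage or exported under the control of liver X receptors. Prostate cells draw on the same sterol pool for membranes, and cholesterol is the starting material of androgens. Of the liver and adrenal markers here, CYP17A1 had at most 2 counts in any library and STAR at most 11.

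SREBP2 acts at sterol regulatory elements near the start of its target genes, commonly together with NF-Y, which binds a short box named for its letters. RefSeq promoter sequences (GRCh38.p14) were held for 25 of the 28 genes, with 31 start sites; ACAT2, FDFT1 and SQLE were not among them. The 250 bases before each start were searched on both strands for TCACNCCAC, a form of the sterol element, for the NF-Y box CCAAT, and for the E-box, spelled CACGTG. The NF-Y box was present before 20 of the 31 member starts (64.5%) and before 32.0% of all 35116 promoters in the table. The E-box was found before 5 of the 31 (16.1%, against 6.35% of all promoters). The searched form of the sterol element was found before 1, that of SREBF2 (3.23%, against 0.883% of all). Other forms of the element, and sites outside the 250 bases, were not searched. By gene, 18 of the 25 had the NF-Y box before a start. Among them were SREBF2 and SOAT1, lower in every clone library, and MVK, higher in every one. A link between the box and the direction of change was not tested. These matches describe letters only. Stretches are shown for MSMO1, HMGCS1, IDI1 and NSDHL, which were higher in every clone library, for INSIG1 as the feedback gene of the pathway, and for SREBF2, whose counts ran the other way. Each reads 5′ to 3′ on the gene's own strand and capitals mark the motif (the NF-Y box mostly appears as its reverse complement, and in IDI1 the box occurs on both strands with 2 bases shared).
MSMO1, chr4:165327446-165327526, plus strand: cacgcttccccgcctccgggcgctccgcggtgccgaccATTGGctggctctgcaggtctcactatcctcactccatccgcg
HMGCS1, chr5:43313525-43313605, minus strand: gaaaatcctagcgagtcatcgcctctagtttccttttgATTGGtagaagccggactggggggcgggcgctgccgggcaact
IDI1, chr10:1049002-1049030, minus strand: cgcgtacgggcgCCAATTGGccgggcgat
NSDHL, chrX:152830813-152830893, plus strand: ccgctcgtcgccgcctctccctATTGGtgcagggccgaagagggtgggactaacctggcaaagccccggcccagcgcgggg
INSIG1, chr7:155297670-155297750, plus strand: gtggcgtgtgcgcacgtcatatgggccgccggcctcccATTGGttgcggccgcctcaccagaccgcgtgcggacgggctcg
SREBF2, chr22:41832962-41832990, plus strand: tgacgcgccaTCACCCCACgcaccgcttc
In SREBF2 the capitals are the searched form of the sterol element. In the other 5 they are NF-Y boxes.

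Of the 28 genes, 8 enzyme genes had more RNA in every K13A library than in either parental library, SREBF2 and SOAT1 had less, and the other 18 overlapped. None of the 28 passed the test. With edgeR's quasi-likelihood test over 20649 genes, 0 of 28 were called at an adjusted p of 0.05 in the clones against parental, where 0.203% of all genes tested were called. At an unadjusted p under 0.05 there were 7 members, and 2266 genes in all. DESeq2 called 1 member, MSMO1, and 2.69% of all genes, and limma-voom 0 members. Fitted log2 fold changes were positive for 17 members and negative for 11, with a median of 0.06, beside a median of -4.74e-03 and 49.4% positive over all genes tested. The median was -0.061 without parental library 1, with 11 members positive, and 0.20 without parental library 2. Leaving out C4K13A library 1 gave 0.16, C4K13A library 2 gave 0.11, and C5K13A gave 0.10. With upper-quartile scaling 14 of the 28 were positive. The fit over both clones takes the mutant libraries as separate, although 2 are of the same clone, C4K13A. Its SEs, intervals and p-values therefore repeat that clone. With the 2 C4K13A libraries summed, 0 members and 11 of 20615 genes were called, and the member median was 0.07.

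The RNA of 8 members was higher in every clone library than in either parental library (ACAT2, HMGCS1, MVK, IDI1, FDFT1, SQLE, MSMO1 and NSDHL). Such a separation upward was seen in 13.6% of all genes tested, and 28.6% of the members. Downward, 2 members separated (SREBF2 and SOAT1), 7.14% of the list beside 14.9% of all genes. Leaving out parental library 2 gave 12 upward and 7 downward (42.9% and 25% of the members), beside 32.2% and 33.4% of all genes. Without parental library 1 the counts were 10 and 6 (35.7% and 21.4%), beside 25.1% and 26.2%. Without C4K13A library 1 they were 9 and 5 (32.1% and 17.9%), beside 20.3% and 22.3%. Without C4K13A library 2 they were 9 and 2, beside 16.3% and 18.2%, and without C5K13A 8 and 6, beside 21.9% and 23.2%. The members' share was above that of all genes upward and below it downward in each of these settings. The 2 shares were closest without C5K13A, at 28.6% against 21.9% upward and 21.4% against 23.2% downward. These settings reuse the same libraries, so they are not separate observations. Parental library 1 was the lowest of the 5 libraries for 11 members (39.3%, against 28.3% of all genes). Among these were ACAT2, FDPS, EBP and INSIG1, whose parental libraries differed by 2.38-, 1.81-, 2.05- and 1.61-fold. Between the libraries with little mitochondrial ribosomal RNA, C4K13A library 1 and parental library 1, the member median was 0.28 on the log2 scale. Between the others, the mean of C4K13A library 2 and C5K13A against parental library 2, it was -0.01. The part of ribosomal RNA removal in these differences was not tested, and the low pair rests on parental library 1 alone.

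**Figure D1:**
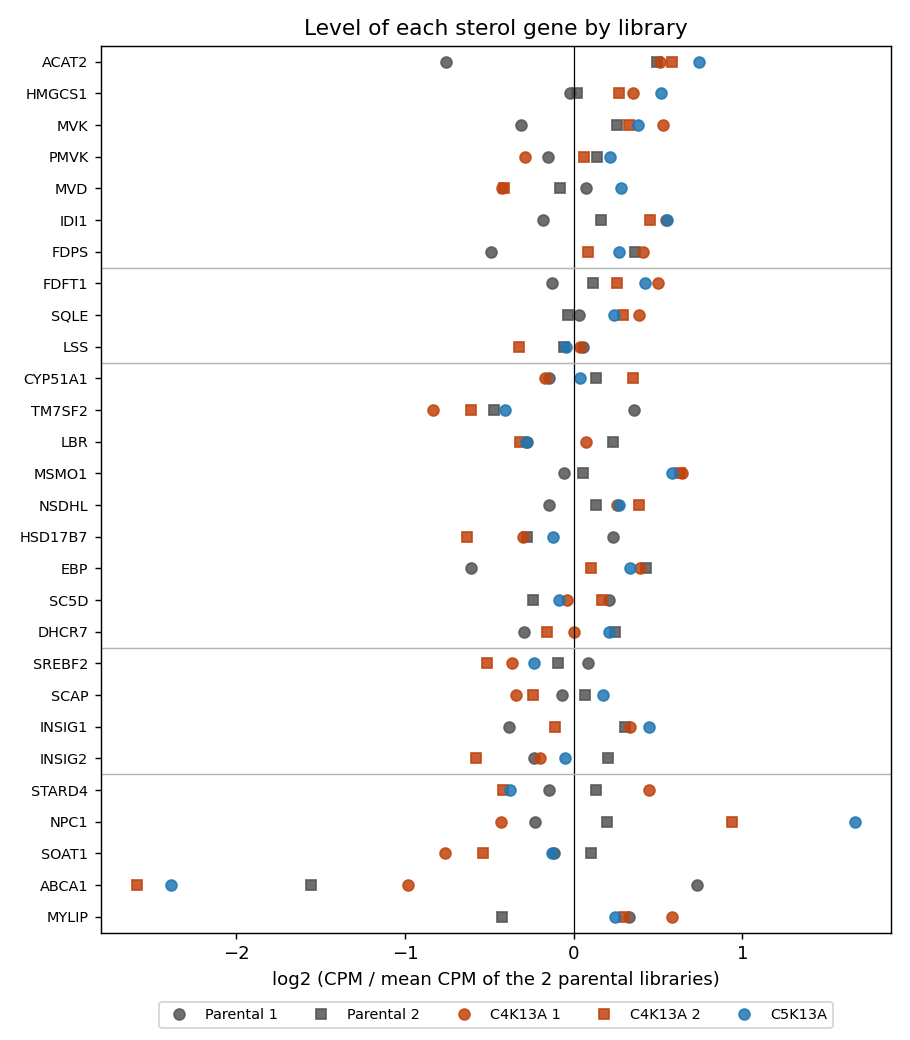
Each row is 1 of the 28 sterol genes, in order of role, and each point is 1 library; the horizontal axis is log2 of its CPM over the mean CPM of the 2 parental libraries. For MSMO1, HMGCS1, SQLE and IDI1 all 3 clone libraries lie to the right of both parental libraries, whereas ACAT2, FDPS and EBP have parental library 1 alone far to the left.

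The first enzymes turn acetyl-CoA into isoprenoid units. In this group 6 of 7 members had positive fold changes over both clones, with a median of 0.38. HMGCS1, the cytosolic synthase of hydroxymethylglutaryl-CoA, had 37.6 and 38.6 CPM in parental cells, against 48.7 and 45.9 for C4K13A and 54.5 for C5K13A. The parental libraries lay within 1.03-fold of each other and below every clone library. The fitted log2 fold change was 0.38 ± 0.15 (SE; edgeR adjusted p = 0.416), with a 95% interval of 0.04 to 0.73. IDI1, which converts isopentenyl to dimethylallyl diphosphate, had 29.1 and 37.0 CPM in parental cells, against 48.2 and 45.1 for C4K13A and 48.5 for C5K13A. Its clones clustered within a narrow band above both parental values (0.52 ± 0.16, adjusted p = 0.311).

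ACAT2, the cytosolic thiolase that joins 2 acetyl-CoA molecules, had 10.8 and 25.7 CPM in parental cells, against 26.1 and 27.4 for C4K13A and 30.5 for C5K13A. Parental library 2 was almost level with C4K13A, so the separation came mainly from parental library 1 (0.62 ± 0.33, adjusted p = 0.528). Exons of ACAT2 share 397 bases with those of TCP1 on the opposite strand, a chaperonin gene with 11488 to 15049 counts per library against 641 to 1306 for ACAT2. As the strand setting of the counting is not given in the sources used here, reads there cannot be assigned. MVK, mevalonate kinase, showed a similar layout, with 21.7 and 32.1 CPM in parental cells, against 38.7 and 33.8 for C4K13A and 35.1 for C5K13A (0.42 ± 0.20, adjusted p = 0.487). MVK shares 306 exon bases with MMAB on the opposite strand, which had 263% as many counts, so the same limit holds for it. FDPS, farnesyl diphosphate synthase, had 37.7 and 68.0 CPM in parental cells, against 56.0 to 70.2 for the clones, so the groups overlapped.

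The phosphomevalonate kinase gene PMVK had 52.4 and 64.0 CPM in parental cells, against 47.6 and 60.7 for C4K13A and 67.6 for C5K13A, with overlapping groups (0.01 ± 0.19, adjusted p = 0.991). PMVK and MVD, the decarboxylase that follows it, had fold changes of opposite sign in the clones, -0.11 in C4K13A and 0.22 in C5K13A for PMVK. MVD had 26.3 and 23.6 CPM in parental cells, against 18.6 and 18.7 for C4K13A and 30.2 for C5K13A. C4K13A thus lay below and C5K13A above both parental libraries. The difference of C5K13A from C4K13A was 0.70 ± 0.22 on the log2 scale (adjusted p = 0.637, unadjusted 0.0121), so MVD did not pass over all genes.

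At the squalene steps, FDFT1 and SQLE were higher in the clones and LSS overlapped. FDFT1, squalene synthase, had 241 and 285 CPM in parental cells, against 371 and 314 for C4K13A and 353 for C5K13A (0.40 ± 0.16, adjusted p = 0.429). SQLE, the squalene epoxidase that is a rate-limiting step of the pathway, had 36.2 and 34.6 CPM in parental cells, against 46.2 and 43.4 for C4K13A and 41.7 for C5K13A (0.31 ± 0.14, adjusted p = 0.482). Both parental values of SQLE lay below all clone values. LSS, the lanosterol synthase that closes the rings, had 99.1 and 92.0 CPM in parental cells, against 76.5 to 98.0 for the clones (-0.10 ± 0.16, adjusted p = 0.854).

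Of the 9 enzymes from lanosterol to cholesterol, 6 had positive and 3 negative fold changes, with a median of 0.02. MSMO1, which oxidizes the methyl groups at carbon 4 of the sterol, had the smallest adjusted p of the list. It stood at 22.4 and 24.2 CPM in parental cells, against 36.4 and 36.1 for C4K13A and 34.9 for C5K13A. Both groups were tight and well apart (0.62 ± 0.15, 95% interval 0.28 to 0.96, adjusted p = 0.206). MSMO1 stayed between 0.57 and 0.68 in the 15 alternatives run and was called in 1 of them, DESeq2 (0.63, adjusted p = 9.70e-03), where 555 genes were called in all. Adjusted p over these alternatives reached 0.809. NSDHL, the dehydrogenase acting after MSMO1 on the same methyl groups, had 22.8 and 27.6 CPM in parental cells, against 30.1 and 33.0 for C4K13A and 30.3 for C5K13A (0.30 ± 0.16, adjusted p = 0.528).

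The reduction at carbon 14 can be done by TM7SF2 or by LBR, which is also the lamin B receptor of the nuclear envelope. TM7SF2 had 277 and 156 CPM in parental cells, against 121 and 142 for C4K13A and 163 for C5K13A. Parental library 1 stood far above the other 4, and C5K13A lay above parental library 2, so the groups overlapped. The fold change was -0.61 ± 0.25 (adjusted p = 0.435), -0.13 without parental library 1 and -0.96 without parental library 2. It was called over both clones in 1 of 15 alternatives, the one with no filter (adjusted p = 0.0366; highest 0.976), where 3.12% of all genes were called. With no filter it was also called in C4K13A, beside 3.60% of all genes. VPS51, the next gene on the same strand, shares 16 exon bases with TM7SF2 and was also highest in parental library 1, at 13755 counts against 6965 to 9422 in the others. LBR had 42.7 and 60.9 CPM in parental cells, against 41.4 to 54.6 for the clones. Per kilobase of exon, TM7SF2 exceeded LBR 10.005-fold in parental library 1 and 3.94-fold in parental library 2. The ratio was 3.43 and 5.28 in C4K13A and 5.89 in C5K13A, inside the parental range except for C4K13A library 1.

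The other late enzymes showed no separation. EBP, the sterol isomerase, had 70.1 and 144 CPM in parental cells, against 115 to 141 for the clones, so both parental libraries lay outside the clone range, on either side. DHCR7, the last reductase before cholesterol, had 141 and 205 CPM in parental cells, against 155 to 199.97 for the clones. SC5D, a desaturase, had 48.7 and 35.6 CPM in parental cells, against 39.7 to 47.4 for the clones. HSD17B7, the 3-keto reductase, had 17.1 and 12.0 CPM in parental cells, against 9.37 to 13.4 for the clones. Its unprocessed copy HSD17B7P2 held 9.51% as many counts. CYP51A1, the lanosterol demethylase, had 10.1 and 12.3 CPM in parental cells, against 9.997 to 14.3 for the clones. Reads of CYP51A1 may be split with the processed pseudogenes CYP51A1P1 and CYP51A1P2, which had 19.5% and 18.7% as many counts, so its level is uncertain.

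**Figure D2:**
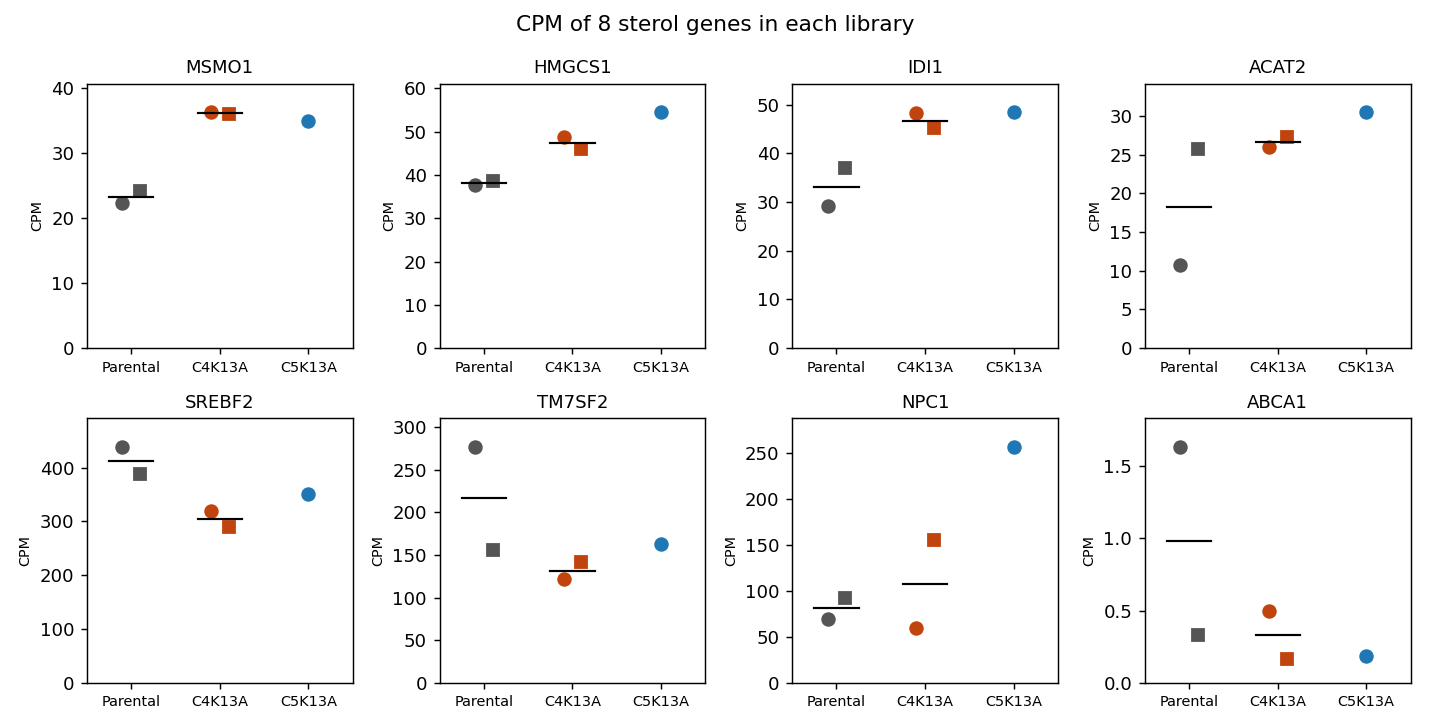
CPM of 8 sterol genes by group, with 1 point per library (circles for replicate 1, squares for replicate 2), horizontal lines at the means of the groups of 2, and axes starting at 0. MSMO1, HMGCS1 and IDI1 are higher in all 3 clone libraries, SREBF2 is lower, and the 2 libraries of a group lie farthest apart, as a ratio, for ABCA1, NPC1 (C4K13A) and ACAT2 (parental).

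Of the 4 genes of SREBP2 control, 1 had a positive and 3 a negative fold change over both clones, with a median of -0.19. SREBF2 itself had 439 and 387 CPM in parental cells, against 320 and 289 for C4K13A and 351 for C5K13A. Every clone library was below both parental ones, yet the fold change did not pass (-0.37 ± 0.16, 95% interval -0.73 to -2.86e-03, adjusted p = 0.452). SCAP had 198 and 217 CPM in parental cells, against 164 and 175 for C4K13A and 234 for C5K13A. The clones lay on opposite sides of the parental line for SCAP, and their difference was 0.47 ± 0.21 (adjusted p = 0.792). INSIG1, which is itself induced by SREBP2 and closes the feedback loop, had 112 and 181 CPM in parental cells, against 185 and 136 for C4K13A and 200.2 for C5K13A (0.24 ± 0.25, adjusted p = 0.757). INSIG2 had 7.82 and 10.6 CPM in parental cells, against 8.02 and 6.17 for C4K13A and 8.88 for C5K13A. Per kilobase, INSIG1 exceeded INSIG2 15.5- and 18.5-fold in the parental libraries, 24.9- and 23.9-fold in C4K13A and 24.4-fold in C5K13A. All 3 clone ratios were above both parental ones, although neither gene separated the groups by itself. With 3 libraries against 2 this ratio was not tested, and how often ratios of other gene pairs separate was not computed.

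Among genes that move, store or export sterol, NPC1 and ABCA1 differed most and were also the least reproducible. NPC1, the lysosomal membrane protein that releases cholesterol from endocytosed lipoproteins, had 69.2 and 92.9 CPM in parental. In C4K13A it stood at 60.1 and 156 CPM, and in C5K13A at 257 CPM. The 2 libraries of C4K13A differed 2.59-fold and spanned both parental values, while C5K13A stood above every other library. NPC1 was lowest in the 2 libraries with little mitochondrial ribosomal RNA (60.1 and 69.2 CPM), and the part of that split was not tested. Over both clones the fold change was 0.96 ± 0.50 (adjusted p = 0.524). For C5K13A against parental it was 1.67 ± 0.46 (adjusted p = 0.475), and 0 of 28 members were called there, where 0.0484% of all genes were. At an unadjusted p under 0.05 there were 4 members, and 1468 of 22743 genes in all. NPC1 was called in that comparison in 4 of 12 alternatives, each of which also called more genes in all. These were DESeq2 (adjusted p = 9.62e-03, 1.03% of all genes called) and no filter (4.52e-09, 1.54%). The others left out C4K13A library 1 (0.0157, 0.738%) or C4K13A library 2 (0.0145, 0.699%). Its adjusted p over the 12 reached 0.739. C5K13A has 1 library, whose spread was taken from the other groups.

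GENCODE v29 (GRCh38) places NPC1 on the minus strand of chromosome 18, from 23506184 to 23586898. Its neighbours within 500 kb were read to see whether the value in C5K13A was shared. RMC1, whose exons overlap those of NPC1 by 604 bases on the opposite strand, had 22.5 and 32.8 CPM in parental cells, against 32.8 and 41.3 for C4K13A and 34.5 for C5K13A. ANKRD29 had 21.9 and 22.9 CPM in parental cells, against 10.04 and 18.1 for C4K13A and 34.6 for C5K13A, which is the same order of libraries within the clones as for NPC1. LAMA3 had 203 and 141 CPM in parental cells, against 102 and 152 for C4K13A and 236 for C5K13A. LAMA3, CABLES1 and TMEM241 had that order within the clones too. CABLES1 had 21.9 and 26.4 CPM in C4K13A and 29.6 in C5K13A, and TMEM241 had 54.2, 69.2 and 69.6. RIOK3, RBBP8 and TTC39C in the same stretch were not highest in C5K13A. For none of the neighbours that were tested was a fold change called in either clone.

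**Figure D3:**
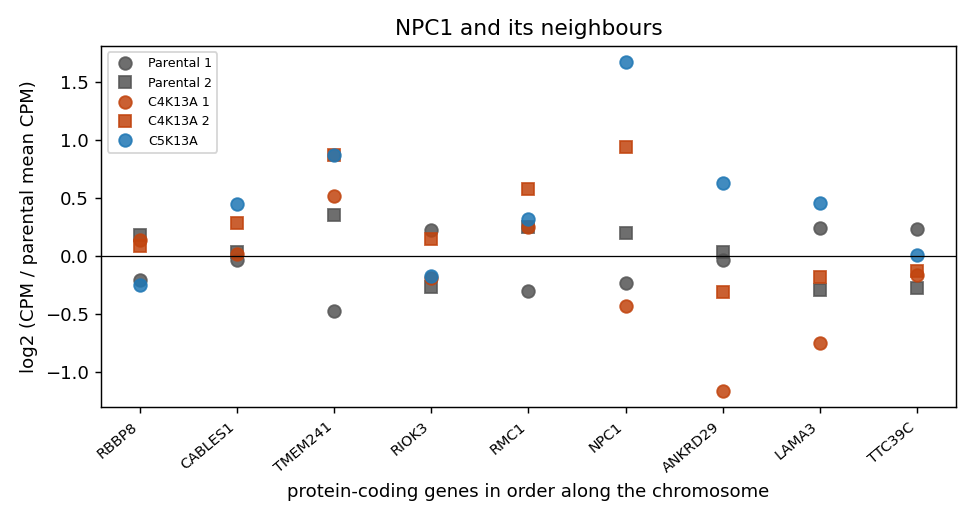
Protein-coding genes within 500 kb of NPC1, in order along the chromosome; points are libraries and the vertical axis is log2 of CPM over the parental mean. C5K13A is the highest library at CABLES1, NPC1, ANKRD29, LAMA3 and TMEM241, and the gap is widest at NPC1.

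ABCA1, the exporter that loads cholesterol onto apolipoproteins, was close to the detection limit. It had 97 and 17 counts in parental, 25 and 7 in C4K13A and 8 in C5K13A, or 1.63, 0.334, 0.499, 0.164 and 0.188 CPM. Parental library 1 held most of its reads, and the other 4 libraries overlapped (-1.78 ± 0.76, adjusted p = 0.452). SOAT1, which esterifies cholesterol for storage, had 21.1 and 24.6 CPM in parental cells, against 13.4 and 15.8 for C4K13A and 20.9 for C5K13A. C4K13A was clearly below the parental libraries, and C5K13A only just (-0.45 ± 0.22, adjusted p = 0.495). For C4K13A alone SOAT1 had -0.65 ± 0.20 (adjusted p = 0.243). MYLIP, a ubiquitin ligase that degrades lipoprotein receptors and is induced by liver X receptors, had 31.1 and 18.5 CPM in parental cells, against 29.4 to 37.2 for the clones. STARD4, a cytosolic sterol carrier, had 4.37 and 5.31 CPM in parental cells, against 6.58 and 3.62 for C4K13A and 3.72 for C5K13A.

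Taken clone by clone, all 7 mevalonate-arm genes had positive fold changes in C5K13A and 5 of 7 in C4K13A, and none passed in either. Over all genes tested 47.1% and 48.9% were positive. Of the 7, ACAT2, HMGCS1, MVK, IDI1 and FDPS were lowest in parental library 1, PMVK and MVD in C4K13A library 1. In C4K13A 0 of 28 members were called (DESeq2 0, limma-voom 0), where 0.699% of all genes were. At an unadjusted p under 0.05 there were 5 members, and 2774 of 22743 genes in all. The member median was 0.10 with 16 positive, beside -0.01 over all genes. In C5K13A the median was 0.23 with 18 positive, beside -0.03 over all genes; DESeq2 called 1 member, NPC1, beside 235 of 22743 genes, and limma-voom 0. These comparisons share the parental libraries, so their values stand side by side only. MSMO1 had 0.64 ± 0.18 and 0.59 ± 0.21 in C4K13A and C5K13A, IDI1 0.50 ± 0.19 and 0.56 ± 0.23, and FDFT1 0.38 ± 0.19 and 0.43 ± 0.23. SREBF2 had -0.44 ± 0.18 and -0.23 ± 0.23. Without parental library 1 the C4K13A median was -0.067, and without parental library 2 it was 0.22 with 4 members called (ACAT2, MVK and EBP higher, TM7SF2 lower), where 7.59% of all genes were called. The C5K13A median was 0.12 without parental library 1, and ACAT2 was called there without parental library 2 (1.504, adjusted p = 0.0164; highest of its alternatives 1.0), where 3.04% of all genes were.

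Tested directly, C5K13A differed from C4K13A in 0 of 28 members (DESeq2 0, limma-voom 0), where 0.0660% of all genes were called. At an unadjusted p under 0.05 there were 2 members, NPC1 and MVD, and 1460 of 22743 genes in all. The largest difference was that of NPC1 (1.26 ± 0.46, adjusted p = 0.714), which was called in 2 of 12 alternatives, without C4K13A library 2 (2.10, adjusted p = 0.0210, 0.334% of all genes called) and with no filter (6.58e-05, 1.13%), and had 0.74 without C4K13A library 1. All 4 genes of SREBP2 control were positive, from 0.21 to 0.47, beside 47.1% of all genes tested. The member median was 0.09, beside -0.03 over all genes, and it was 0.20 without C4K13A library 1.

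**Figure D4:**
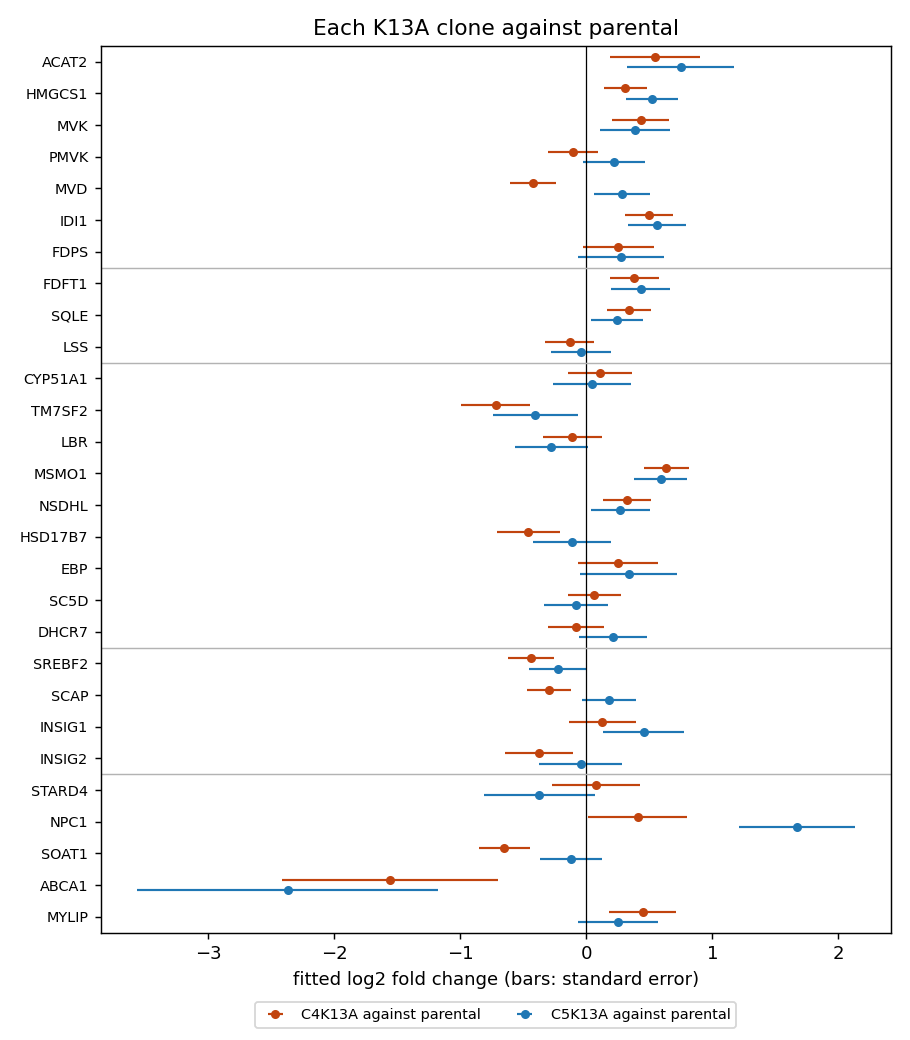
Fitted log2 fold changes of the 28 genes in C4K13A and in C5K13A against the same 2 parental libraries, with bars of 1 standard error. Both clones lie right of 0 for MSMO1, IDI1 and HMGCS1 and left of 0 for TM7SF2 and SREBF2, they fall on opposite sides for MVD and SCAP, and NPC1 in C5K13A is farthest right.

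Levels between genes were compared per kilobase of exon, using all GENCODE v29 exons of a gene. FDFT1 had the highest mean over the 5 libraries, at 60.1 CPM per kilobase (range 46.2 to 71.3). It led in C4K13A (65.9) and C5K13A (67.8), whereas in parental cells TM7SF2 (63.4) and SREBF2 (54.7) had higher means than FDFT1 (50.5). Over the 5 libraries it was followed by TM7SF2 (50.4), EBP (50.1), SREBF2 (47.3), PMVK (45.7), INSIG1 (44.6) and DHCR7 (42.04), whose ranges over libraries overlapped. SCAP came next at 30.7. A middle group from FDPS (15.9) through NSDHL, LSS, NPC1 and MSMO1 (10.6) to SC5D (7.64) held most of the remaining enzymes. CYP51A1 (3.26), SOAT1 (2.74), HSD17B7 (2.66), INSIG2 (2.10) and STARD4 (0.831) were lower, and ABCA1 was lowest at 0.0497, below every library of every other member even in parental library 1 (0.144). Gene models with long alternative exons lower these values, so neighbours in the order are not distinguished.

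**Figure D5:**
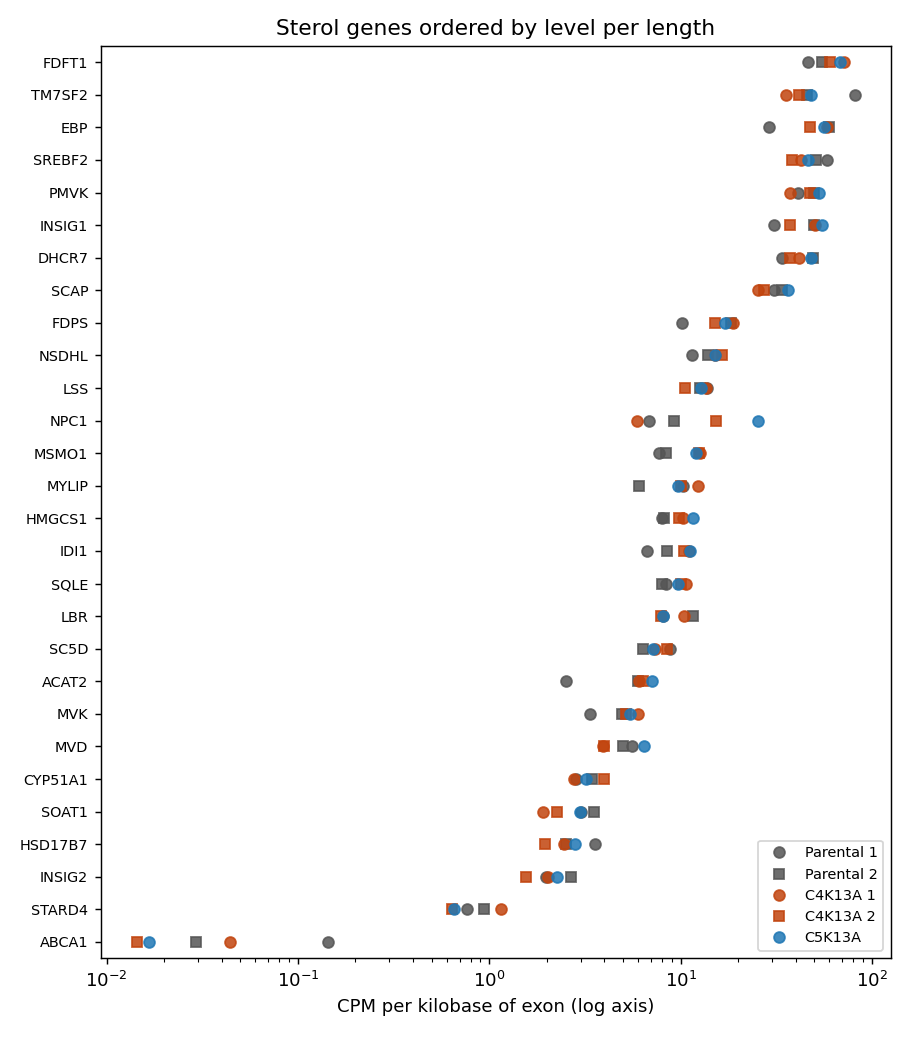
The 28 genes ordered by mean CPM per kilobase of exon on a log axis, with 1 point per library. FDFT1 leads at 60.1 over the 5 libraries, though not in the parental libraries alone, and ABCA1 is last at 0.0497 CPM per kilobase.

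A wider list of 53 sterol genes, from SREBP processing to isoprenoid use and oxysterol metabolism, gave 48 measured genes over both clones. Of these 29 had positive and 19 negative fold changes, with a median of 0.07, and 0 were called (DESeq2 called FAXDC2 and limma-voom 0). At an unadjusted p under 0.05 there were 3 of them, and 2266 of 20649 genes in all. FAXDC2, a gene of the fatty acid hydroxylase family, had the largest value. It had 3.32 and 3.11 CPM in parental cells, against 8.24 and 25.7 for C4K13A and 15.2 for C5K13A. All clone libraries were above parental, with a 3.12-fold spread in C4K13A (2.35 ± 0.45, adjusted p = 0.135). Such a separation upward was seen in 13.6% of all genes tested. FAXDC2 was called in 2 of 15 alternatives over both clones, DESeq2 (8.75e-06, 2.69% of all genes called) and no filter (6.51e-14, 3.12%). It was called in 6 of 14 alternatives in C4K13A and in 4 of 12 in C5K13A. Each of these also called more genes in all. In C4K13A the replicate block (2.66e-03) called 885 genes and the ribosomal RNA covariate (4.96e-03) 777, against 159 without either. NPC2, the soluble partner that hands cholesterol to NPC1, had 65.2 and 43.8 CPM in parental cells, against 32.7 to 35.5 for the clones (-0.67 ± 0.19, adjusted p = 0.267). NPC2 was called over both clones in 1 of 15 alternatives, with no filter (0.0174, 3.12% of all genes called). In C4K13A it was called in 2 of 14, each of which also called more genes in all. NPC2 was lower in every clone library than in either parental library, as were 14.9% of all genes tested.

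TMEM97, a sterol-regulated membrane protein that binds NPC1, had 105 and 120 CPM in parental cells, against 60.8 and 63.7 for C4K13A and 141 for C5K13A. C4K13A was about as low in both libraries and C5K13A was the highest. TMEM97 had -0.86 ± 0.18 in C4K13A against parental (adjusted p = 0.0909) and 1.19 ± 0.21 in C5K13A against C4K13A (adjusted p = 0.166). It passed in 6 of 14 and 4 of 12 alternatives of these comparisons, each of which also called more genes in all. With no filter, for instance, 1346 and 423 genes were called, against 159 and 15 with the filter. OSBPL8, an oxysterol-binding protein relative at membrane contacts, had 0.91 ± 0.23 between the clones (adjusted p = 0.424). It was called in 2 of 12 alternatives, each of which also called more genes in all. GRAMD1C, of a family moving cholesterol from the plasma membrane, had 3.37 and 3.40 CPM in parental cells, against 3.87 and 3.64 for C4K13A and 8.32 for C5K13A (1.30 ± 0.32 in C5K13A against parental, adjusted p = 0.401). SULT2B1, a cholesterol sulfotransferase, had -0.65 ± 0.31 over both clones (adjusted p = 0.484). SREBF1, the gene of the fatty acid-directed relative of SREBP2, had -0.57 ± 0.22 in C4K13A (adjusted p = 0.359). NR1H3, the gene of liver X receptor alpha, had 0.62 ± 0.37 between the clones (adjusted p = 0.858). CH25H and CYP7B1, which make oxysterols, and SOAT2 had at most 2 counts in any library.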

How the data were processed

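The authors deposited whole-number counts of reads per Ensembl gene, not normalized. Per the submitters' processing notes they used bcl2fastq, STAR 2.5 and featureCounts 1.4.6-p5 of Subread. Per the labels' protocols, total RNA was DNase-treated and depleted of ribosomal RNA (RiboErase). The sources used here give no build, annotation release, strand setting or treatment of multiply aligned reads. GENCODE v29 supplied symbols, positions and exon lengths for 55297 of 58812 IDs.

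Tests on the counts used edgeR 4.0.16 under R 4.3.3 (genes kept by filterByExpr, TMM scaling, quasi-likelihood F test, Benjamini-Hochberg adjustment over all genes tested, threshold 0.05). The clones together against parental used 2 groups (3 residual degrees of freedom). The comparisons by clone used a 3-group fit (2 residual degrees of freedom). SE is the size of the fold change over the root of F. Alternatives included DESeq2 1.42.0 and limma-voom 3.58.1. The tests were also run on simulated counts, whose set changes were larger than those of most members and shared by every K13A library. That check does not cover smaller changes or differences between the clones. Members, lists and tests were chosen with earlier results of these data known. Text names all 28 members and, of 53 other sterol genes, any called plus the 4 largest changes per comparison at 5 CPM or more, with HOXB13 and KLK3; CH25H, CYP7B1 and SOAT2 were added afterwards for their low counts.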

Additional observations from a re-analysis of the deposited data

How the results depend on the processing

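With every library, RLE or upper-quartile factors, the stricter filter, limma-voom, leaving out mitochondrial, small and ribosomal RNA genes and the ribosomal RNA covariate left 0 members called in each of the 4 comparisons. Without a filter 2 were called in both clones (NPC1 and TM7SF2) and 1 in each of the other comparisons, where the genes called in all numbered 1167, 1346, 578 and 423. DESeq2 called 1 in both clones and 1 in C5K13A against parental. Leaving out single libraries gave 0 members called over both clones, 0 to 4 in C4K13A, 0 to 1 in C5K13A and 0 to 1 between the clones. The member median then ran from -0.061 to 0.20 over both clones, from -0.067 to 0.22 in C4K13A, from 0.12 to 0.24 in C5K13A and from 0.07 to 0.20 between the clones. Members separated upward numbered 8 to 12, and downward 2 to 7, a count added after the data were seen; fewer libraries separate more genes by construction. The cause of the other changes was not tested. Of the 28 members, 18, 17, 17 and 15 kept 1 sign in all alternatives of the 4 comparisons in order.

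Over all genes, calls in both clones ranged from 0 (without parental library 1) to 1167 (no filter) around 42. They ranged from 32 to 1667 around 159 in C4K13A, from 0 to 668 around 11 in C5K13A and from 0 to 423 around 15 between the clones. The replicate block, possible for C4K13A against parental alone, called 885 genes and 0 members, with a member median of 0.09. The libraries share only a number (r = 0.17 across 20649 genes for the 2 pairs). Numbers 1 and 2 there also divide low from high ribosomal RNA, so these cannot be told apart. Depth limits ABCA1, with 7 to 97 counts.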
